A study of Mus musculus with 7 samples.

Results

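Monocytes and other myeloid cells are known for the 9 genes that were followed here through single-cell wells of PyMT mouse mammary tumours and of blood: Ly6c2, Ccr2, Lyz1, Lyz2, Tgfbi, Sfpi1, Bin2, Plac8 and Emb. All 9 were among the 11753 genes measured. They were chosen by their levels in the sorted populations, high in E-cadherin-negative cells from blood in earlier results of these data, so their differences between populations are given as descriptions without a test. PyMT mice carry the polyoma middle T transgene and develop breast tumours. Cells were sorted one per well and read by CEL-seq, which counts the 3′ ends of transcripts with a molecular barcode. The 4 sorted populations were used, without any treatment named in the labels: solid tumour cells positive (TEp) or negative (written here as Ecad-negative tumour) for E-cadherin, an epithelial adhesion protein, and cells labelled as circulating tumour cells negative (BEn) or positive (BEp) for it. TEp, Ecad-negative tumour and BEn were in each of 4 libraries, which are the replicates, and BEp was in library 1 only. The sources used here do not give the age, the strain and the number of mice, the promoter of the transgene or whether the libraries came from separate mice. A further 3 libraries of E-cadherin-positive tumour cells served as background.

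Classical monocytes leave the bone marrow through the chemokine receptor CCR2, carry the surface protein Ly6C (Ly6c2 encodes 1 of its forms) and are rich in lysozyme, the enzyme that cleaves bacterial cell walls. The mouse has a duplicated lysozyme: Lyz2, also called lysozyme M, is known from macrophages, monocytes and neutrophils, and Lyz1, lysozyme P, from Paneth cells of the gut. Sfpi1 is the older symbol of Spi1, which encodes PU.1, an ETS-family transcription factor needed for myeloid and B cells. Retnlg, a resistin-like secreted protein, and S100a8 and S100a9, the calprotectin subunits, are textbook genes of neutrophils and were set beside the 9 genes.

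After wells under 500 transcripts were dropped, 71 TEp, 69 Ecad-negative tumour, 60 BEn and 20 BEp wells were left, 220 of 312, with median totals of 2064, 1603, 819 and 3803 transcripts per well. A single Ecad-negative tumour well of library 2 held 61227 transcripts. The 96 plate barcodes were reused: 72 occurred in all 4 libraries. The 16 BEn wells with Ccr2 used 13 of them, and 3 barcodes carried Ccr2 in more than 1 library. BEn held little RNA of a list of 10 epithelial and luminal genes: 0.461% ± 0.159 of transcripts (SD, n = 4 libraries). The list took 3.87% ± 0.729 in TEp, 2.05% ± 0.556 in Ecad-negative tumour and 0.0694% in BEp. Most of its transcripts in TEp were of Wfdc18 (2617), Csn3 (2481) and Trf (1198). Of its 8 testable genes 7 were called lower in BEn than in Ecad-negative tumour. Cdh1, the gene of E-cadherin, was not (log2 difference -0.25 ± 0.45 SE, edgeR adjusted p = 0.706). Whether BEn wells held tumour cells, as labelled, was not tested. The neutrophil list took 8.20% ± 2.80 of BEn transcripts and 0.387% ± 0.142 of TEp transcripts.

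The lysozyme pair is shown first because the results turn on it. On GRCm38, Lyz1 (chr10:117287797-117292868) and Lyz2 (chr10:117277331-117282321) are protein-coding neighbours on the minus strand of chromosome 10, with 5475 bases between them. Their coding sequences, 447 bases each, shared 425 bases (95.1%). The last 500 bases of the transcripts, where CEL-seq reads start, were 95.4% identical over the alignment. Of the 426 windows of 75 bases (the read length) in that stretch of Lyz1, 30 (7.04%) were found whole in Lyz2, and of those in the last 200 bases none was. The 250 bases before each start, from RefSeq (GRCm38.p6, minus strand, chr10:117292869-117293118 for Lyz1 and chr10:117282273-117282522 for Lyz2), follow 5′ to 3′. Capitals mark their longest identical run, the 50 bases next to the start.
Lyz1: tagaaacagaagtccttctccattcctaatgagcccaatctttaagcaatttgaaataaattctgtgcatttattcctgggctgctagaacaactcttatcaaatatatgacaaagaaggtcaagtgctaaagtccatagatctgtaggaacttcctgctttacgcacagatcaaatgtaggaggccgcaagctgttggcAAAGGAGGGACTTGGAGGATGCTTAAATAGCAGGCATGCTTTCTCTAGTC
Lyz2: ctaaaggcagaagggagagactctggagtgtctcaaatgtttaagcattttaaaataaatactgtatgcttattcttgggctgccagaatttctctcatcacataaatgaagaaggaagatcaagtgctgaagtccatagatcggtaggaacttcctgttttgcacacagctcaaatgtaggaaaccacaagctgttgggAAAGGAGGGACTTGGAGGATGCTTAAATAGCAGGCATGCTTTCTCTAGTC
Over the alignment of these 250 bases 78.2% of columns were identical. RefSeq windows from 250 bases before to 50 after the start were matched for 7 of the 9 genes (none for Sfpi1 and Bin2). GAGGAAG, letters of the PU.1 recognition element, was searched on both strands (CTTCCTC on the other). It was found in 2 of the 9 windows of these genes, both of Ly6c2 (1 of the 7 genes), and in 13.6% of all 32851 windows. The Ly6c2 sequence (chr15:75111972-75112221, minus strand) is shown because it holds the match, in capitals:
Ly6c2: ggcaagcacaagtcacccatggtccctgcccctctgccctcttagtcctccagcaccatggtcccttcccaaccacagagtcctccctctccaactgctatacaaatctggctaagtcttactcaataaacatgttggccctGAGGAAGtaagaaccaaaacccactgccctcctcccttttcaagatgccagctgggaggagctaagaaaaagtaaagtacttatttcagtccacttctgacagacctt
A match describes letters only, and no match says nothing of the factor.

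On GRCm38 the other 7 genes, all protein-coding, lie at chr9:124101950-124113557 (Ccr2, plus strand), chr15:75108158-75111970 (Ly6c2, minus), chr2:91082390-91115756 (Sfpi1, plus), chr15:100641077-100669553 (Bin2, minus), chr13:56609523-56639562 (Tgfbi, plus), chr5:100553725-100572245 (Plac8, minus) and chr13:117208536-117274415 (Emb, plus). Levels are given as transcripts per 10000 of a summed library and population, and transcript numbers are sums of estimates, rounded. Ccr2, the receptor for the chemokine CCL2, was read in BEn at 11.1, 5.59, 5.08 and 10.8 per 10000 in libraries 1 to 4. No Ccr2 transcript was read in TEp or Ecad-negative tumour, in 189080 and 182534 transcripts. At a floor of 3 transcripts per population this puts BEn at least 50.02-fold higher than Ecad-negative tumour and at least 51.8-fold higher than TEp. Ly6c2 stood at 23.4, 5.97, 5.07 and 8.09 per 10000 in BEn, with library 1 far above the other 3, and at 0 to 0.365 in the 8 tumour sums. Ly6c2 has near-identical family members, and the sources used here do not say how shared reads were assigned.

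Lyz1, the lysozyme described in Paneth cells, was read in BEn at 182, 132, 100.5 and 163 per 10000. The Ecad-negative tumour libraries held 4.31, 1.28, 7.22 and 5.85 and the TEp libraries 1.12 to 2.19. Lyz2 was read at 64.01, 57.1, 58.6 and 108 per 10000 in BEn, at 0.274 to 4.45 in Ecad-negative tumour and at 0 to 0.731 in TEp. The BEn libraries did not overlap with the tumour libraries for either gene, and library 4 had the highest Lyz2. In the pooled sums Lyz1 was 51.1-fold higher in BEn than in Ecad-negative tumour (95% counting interval 38.7 to 68.6) and Lyz2 64.8-fold higher (41.03 to 108). For Lyz2 single libraries moved the fitted log2 difference, from 5.94 ± 0.32 (SE) with all 4 to 5.23 without library 2 and 6.66 without library 3.

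Sfpi1, the PU.1 gene, was at 6.95, 5.96, 5.91 and 11.7 per 10000 in BEn, at 0.0912 to 0.583 in Ecad-negative tumour and read once in TEp. Bin2, a membrane-shaping protein of blood cells, was at 5.31, 6.33, 4.22 and 8.09 in BEn, with 2 transcripts in Ecad-negative tumour, both in library 1, and none in TEp. Tgfbi, an extracellular matrix protein induced by TGF-beta, was at 10.3, 7.13, 5.07 and 9.88 in BEn. It was the 1 of the 3 that Ecad-negative tumour held more than a few times: 10 transcripts, in libraries 1, 2 and 3, with none in TEp. Plac8, a small cysteine-rich protein, stood at 29.2, 17.03, 15.3 and 17.3 in BEn. Emb, embigin, a chaperone of monocarboxylate transporters, was at 15.2, 8.35, 5.07 and 16.2.

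Plac8 and Emb were the 2 genes with the smallest gap to the tumour. Plac8 was read at 1.101 to 3.77 per 10000 in Ecad-negative tumour and at 0.666 to 1.83 in TEp, and its pooled BEn level was 11.2-fold that of Ecad-negative tumour (7.67 to 16.7). Emb reached 4.09 in Ecad-negative tumour library 4, just under the lowest BEn library (5.07). Its pooled ratio of BEn to Ecad-negative tumour was 7.69 (4.93 to 12.3). Within each of the 4 libraries Emb was higher in Ecad-negative tumour than in TEp, at 2.70, 0.641, 1.65 and 4.09 against 0.841, 0.139, 0.332 and 0.731, though the ranges of the 2 populations overlapped. The same held for Lyz1 and Lyz2.

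For all 9 genes every BEn library lay above every Ecad-negative tumour and TEp library. The choice of the genes fixes that direction, and of the 490 genes that passed the low-count filter, the 9 included, 19% did the same (93 genes). In the fit over all these genes, 201 (41%) were called between BEn and Ecad-negative tumour with edgeR, 117 higher in BEn (23.9%) and 84 lower (17.1%). Between BEn and TEp 236 (48.2%) were called, 133 higher in BEn (27.1%) and 103 lower (21%). Between Ecad-negative tumour and TEp 31 (6.33%) were called, 23 higher in Ecad-negative tumour (4.69%) and 8 lower (1.63%). Scaling by totals alone put the median log2 difference of BEn against Ecad-negative tumour over all genes at -0.49 in place of -0.05, and the split was then 99 higher and 187 lower. Against TEp it was 110 and 188.

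**Figure D1:**
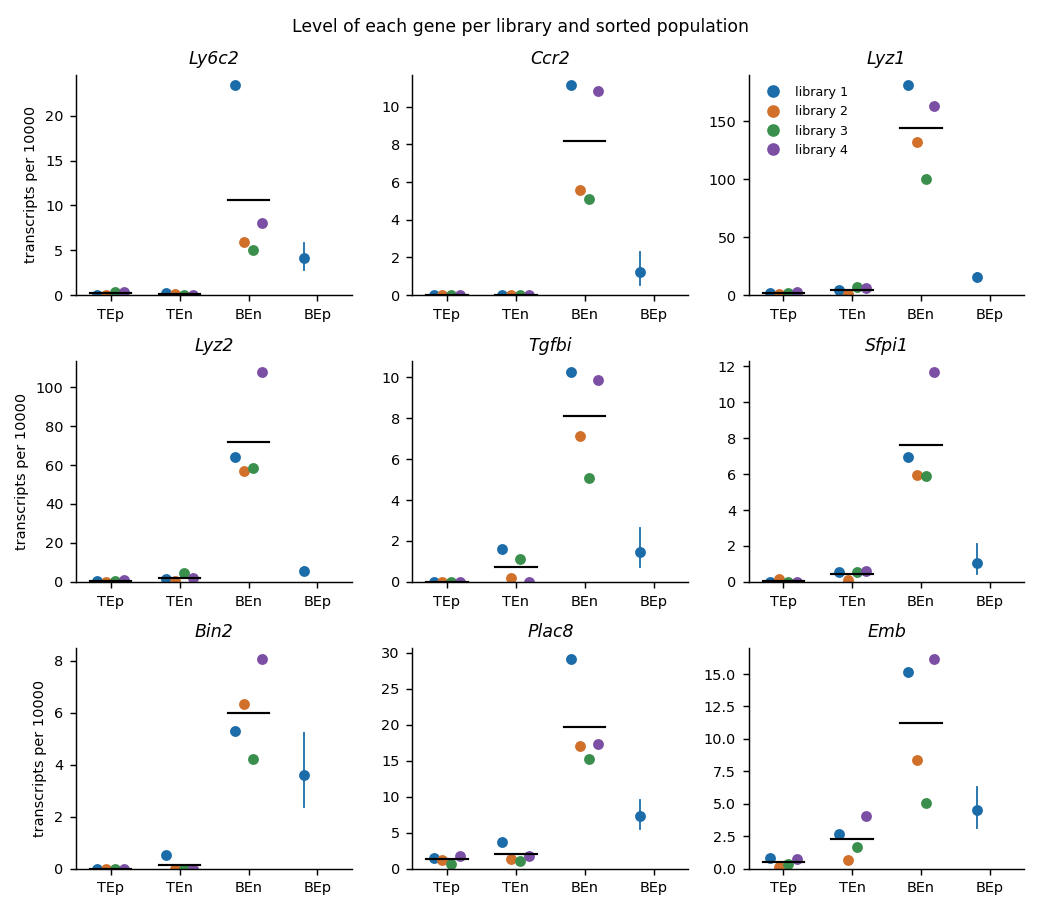
Level of each gene (vertical axis, transcripts per 10000, a separate linear scale in each panel) in TEp, Ecad-negative tumour, BEn and BEp wells, from left to right. Points are libraries, black bars the mean of 4 libraries, and the BEp point of library 1 carries its 95% Poisson interval. The BEn points stand above all TEp and Ecad-negative tumour points in every panel, and library 1 stands alone for Ly6c2.

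BEp, the E-cadherin-positive wells from blood, held all 9 genes at lower levels than BEn of the same library. The genes were chosen as high in BEn, which favours that direction, and the share of all genes that did so was not counted. Retnlg, S100a8 and S100a9 were also higher in BEn of library 1, by 4.78-, 5.59- and 4.24-fold. Lyz1 was at 16.01 and Lyz2 at 5.55 per 10000 in BEp, so that BEn of library 1 was 11.4-fold higher for both (counting intervals 9.27 to 14.03 and 8.09 to 16.5). Bin2 was the exception in size: 5.31 in BEn and 3.61 in BEp, a ratio of 1.47 (0.698 to 2.95) that includes 1. Lymphocyte genes went the other way. BEp held 300 transcripts of the T and NK cell list and 197 of the B cell list, 0.401% and 0.262% of its RNA, against 0.0234% ± 0.0163 and 0.00612% ± 0.0122 in BEn. With 1 library this comparison has no replicates and no test.

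In BEp the lysozyme RNA lay in few wells, which also held lymphocyte genes. Of the 20 wells, 4 had at least 20 lysozyme transcripts and held 81.99% of it, and each of the 4 also had at least 10 transcripts of the T, NK and B cell lists. Over all BEp wells 16 of 20 reached those 10. The 5 BEp wells with Ccr2 held 19 to 108 lymphocyte-list transcripts and at most 4 of Retnlg. A single lysozyme-rich BEp well carried 42 Retnlg transcripts besides 25 of Lyz1 and 4 of Lyz2. Median depth was 3803 transcripts in BEp and 819 in BEn, and whether such wells held more than 1 cell was not tested.

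Shares of wells with a transcript depend on depth, so each well was also thinned to 500 transcripts. Lyz1 was read in 53 of 60 BEn wells (88.3%), and after thinning in 79.96% ± 3.10 of wells per library (SD, n = 4), against 8.85% ± 8.01 in TEp. Ccr2 was read in 16 of 60 BEn wells (26.7%) and after thinning in 17.3% ± 8.09, with 0 in TEp and Ecad-negative tumour. Plac8 came to 29.1% ± 13.2 of BEn wells after thinning and 6.80% ± 5.17 of TEp wells. Unthinned, Plac8 was in 33.3% of BEn, 31.9% of Ecad-negative tumour and 26.8% of TEp wells, at the median depths of 819, 1603 and 2064 transcripts. Sfpi1, Bin2 and Tgfbi were read in 30, 30 and 32 of the 60 BEn wells unthinned and in 31.7%, 28.4% and 32.6% of wells, as means over libraries, after thinning.

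The wells of BEn were then compared with each other. The split set for this purpose, wells with any Ly6c2 or Ccr2 against wells with neither, had Lyz2 higher with either gene in 4 of 4 libraries and Retnlg in 2 of 4. Lyz2 stood at 79.7, 129, 155 and 170 per 10000 in the wells with either gene and at 12.3, 14.005, 10.2 and 13.7 in the others. It was higher in 4 of 4 libraries, by 121 ± 39.6 on average (SD, n = 4; two-sided exact sign-flip permutation test, p = 0.13, the smallest that 4 libraries can give). Lyz2, Ly6c2 and Ccr2 were chosen together from these data, so this result is a description only. Wells with either gene were also deeper, with a median total of 1415 transcripts as a mean over libraries, against 715 in the others. Retnlg stood at 71.8, 91.2, 94.6 and 63.3 with either gene and at 107, 109, 24.4 and 57.6 without. The difference of 5.51 ± 46.3 was higher in 2 of 4 libraries (exact p = 0.875), smaller than the spread between libraries. The direction and size depended on the setting. With each well thinned to 500 transcripts before the split, the difference was 62.8 (133 against 70.5), higher in 4 of 4 libraries (exact p = 0.13), and with the mean of per-well values it was 35.3, higher in 3 of 4. It was -16.1 without library 3, -16.6 where at least 2 transcripts of the gene pair were required and -15.2 in wells of at least 1000 transcripts, which left 3 libraries.

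Ccr2 and Ly6c2 were not in the same wells throughout. This division, and the thresholds used in it, were chosen after the values of single wells had been seen, so it carries no test. Of 60 BEn wells 16 held Ccr2 (5, 3, 3 and 5 per library), 18 held at least 10 Retnlg transcripts (7, 6, 2 and 3), none held both, and 26 were in neither class. Ly6c2 was read in 12 of the 16 Ccr2 wells and in 9 other wells, and all 9 were wells with at least 10 Retnlg. In Ccr2 wells Retnlg never passed 3 transcripts and 10 of the 16 had none, while the Retnlg-rich wells held 11 to 85. Per library, Retnlg was at 1.61, 2.77, 3.08 and 5.67 per 10000 in Ccr2 wells and at 161, 142, 64.7 and 111 in the rest. Ccr2 wells were deeper: their median total was 1441 transcripts, against 855 in the Retnlg-rich wells and 685 in the remaining ones.

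Both lysozymes and Plac8 followed Ccr2. The 16 Ccr2 wells held 38.7% of BEn transcripts but 86.3% of those of Lyz1, 86.5% of Lyz2 and 94.7% of Plac8. Each of the 16 carried Lyz1 (8 to 151 transcripts, median 51.3) and Lyz2 (6 to 68, median 25.2), and 14 carried Plac8 (up to 30). The highest Lyz1 and Lyz2 numbers in a well without Ccr2 were 15 and 9, in 1 and the same well of library 2, which had 13 Retnlg transcripts. Of the 17 BEn wells with at least 20 lysozyme transcripts 15 held Ccr2, and the other 2, both of library 2, held 13 and 85 of Retnlg. The lysozymes were not absent from the Retnlg-rich wells: Lyz1 was read in 18 of 18 and Lyz2 in 16, at pooled levels of 48.1 and 24.8 per 10000, against 330 and 151 in Ccr2 wells and 19.2 and 5.65 in the remaining wells.

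**Figure D2:**
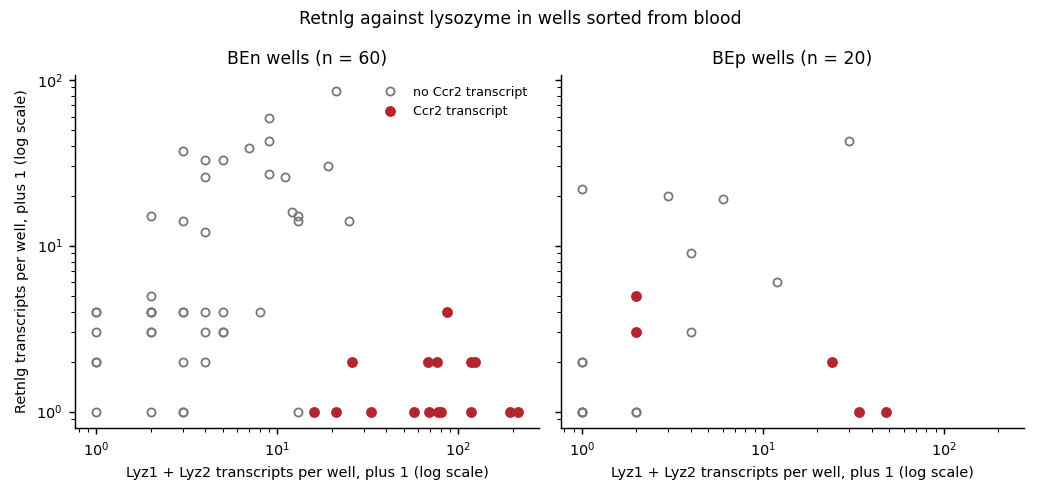
Retnlg transcripts (vertical axis) against Lyz1 and Lyz2 transcripts together (horizontal axis) in each well, both plus 1 on log scales, for the 60 BEn and the 20 BEp wells. Filled points are wells with a Ccr2 transcript. In BEn they lie at the lower right, with at most 3 Retnlg transcripts, while the wells with 11 to 85 of Retnlg hold none of Ccr2.

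Sfpi1, Bin2, Tgfbi and Emb did not divide that way. The Ccr2 wells held 28.8% of the BEn transcripts of Sfpi1, 44.2% of Bin2, 46.8% of Tgfbi and 45.2% of Emb, beside their 38.7% of all RNA. The PU.1 gene leaned to the Retnlg-rich wells, at 11.7 per 10000 against 5.33 in Ccr2 wells and 5.21 in the remaining wells. Emb was nearly level across the 3 classes when pooled, at 13.2, 11.2 and 9.13, but libraries differed. In libraries 1 to 4 it was at 8.87, 16.8, 15.4 and 16.99 in Ccr2 wells and at 21.7, 4.97, 1.16 and 15.4 in all other wells. Ly6c2 was divided 77.1% to 22.9% between Ccr2 and Retnlg-rich wells, with no transcript elsewhere. As rank correlations over the 60 wells, a description of cells that share libraries and differ in depth, Ccr2 stood at 0.76 with Plac8, 0.76 with Lyz2, 0.50 with Ly6c2, -0.04 with Sfpi1 and -0.63 with Retnlg. Lyz1 and Lyz2 reached 0.85, and Sfpi1 with Retnlg 0.27.

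**Figure D3:**
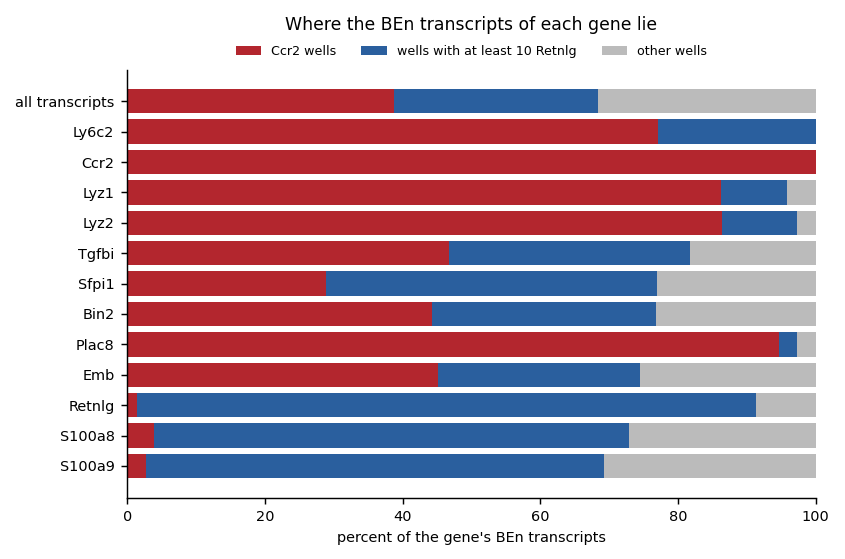
Share of the BEn transcripts of each gene (horizontal axis, percent) in Ccr2 wells (16), wells with at least 10 Retnlg transcripts (18) and the other 26 wells, with all transcripts in the top bar. Lyz1, Lyz2 and Plac8 lie mostly in Ccr2 wells and Retnlg, S100a8 and S100a9 mostly outside them, while Tgfbi, Sfpi1, Bin2 and Emb are spread over all 3 classes.

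A Ccr2 well held a median of 8 of the 9 genes (5 to 9), and another BEn well a median of 3.5 (1 to 7). Every BEn well held at least 1, and 3 wells held all 9. In the tumour, 7 of 69 Ecad-negative tumour wells and 1 of 71 TEp wells held 4 or more, and the most transcripts of the 9 in 1 well were 17 in Ecad-negative tumour and 5 in TEp, against 265 in BEn. The Ecad-negative tumour well richest in lysozyme, of library 3, held 8 Lyz1 and 7 Lyz2 of its 4557 transcripts and no Retnlg. It also held 61 transcripts of the epithelial list, 10 of a pan-myeloid list and 7 of a tissue macrophage list.

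Lyz1 exceeded Lyz2 in all 4 BEn libraries, by 1.51 to 2.84 times. The transcripts of the 2 genes were 446 and 157 in library 1, 335 and 145 in library 2, 119 and 70 in library 3, and 182 and 120 in library 4. The share of Lyz1 was thus 73.96% (exact binomial interval 70.3 to 77.4), 69.8% (65.5 to 73.9), 62.96% (55.7 to 69.9) and 60.3% (54.5 to 65.8). The mean ratio was 2.09 ± 0.6001 (SD, n = 4), and the intervals of libraries 1 and 4, which cover counting error only, did not overlap. Since reads of near-identical copies may have been divided between the genes, the ratio is uncertain to that extent.

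The library difference was also seen in single wells. Among wells with at least 20 lysozyme transcripts, the share of Lyz1 ran from 67.5% to 82.6% in the 5 wells of library 1, from 62.8% to 77.4% in the 5 of library 2, from 58.3% to 64.9% in the 3 of library 3 and from 57.6% to 65.3% in the 4 of library 4. The wells of library 1 did not overlap with those of libraries 3 and 4. BEp, in library 1 as well, had 74.1% (66.6 to 80.6) over all its wells, an interval that overlaps those of BEn libraries 1, 2 and 3. Its 4 wells with at least 20 lysozyme transcripts ran from 56.7% to 86.2%, across the well ranges of all 4 BEn libraries. Library 1 also had more RNA per BEn well than libraries 3 and 4, with median totals of 924, 716 and 709 transcripts; library 2, with 1126, had the highest. The part of depth in the ratio was not tested.

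**Figure D4:**
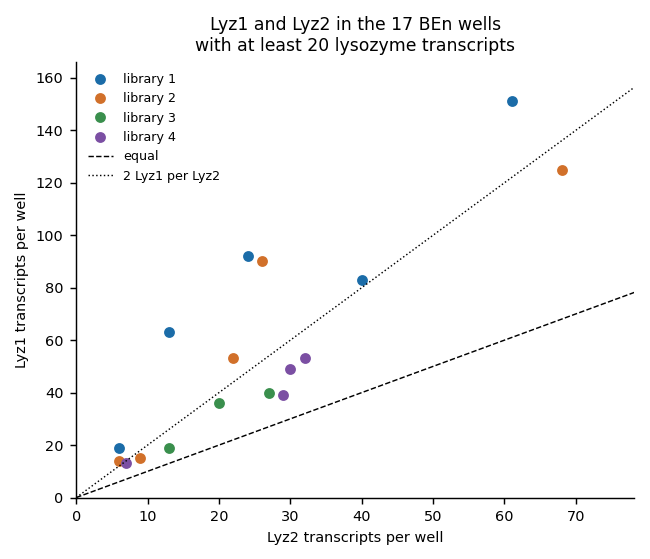
Lyz1 (vertical axis) and Lyz2 (horizontal axis) transcripts in the 17 BEn wells with at least 20 lysozyme transcripts, coloured by library. The dashed line marks equal numbers and the dotted line a ratio of 2 to 1. All 17 wells lie above the dashed line, and the wells of libraries 3 and 4 lie below the dotted one.

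In the tumour the numbers were too small to place the ratio closely. Ecad-negative tumour held 53 and 19 transcripts (73.6% Lyz1, 61.9 to 83.3) and TEp 32 and 5 (86.5%, 71.2 to 95.5). In the background libraries of E-cadherin-positive tumour cells Lyz1 was not always ahead. Library 2 of that experiment held 53 of Lyz1 and 67 of Lyz2 (44.2% Lyz1, 35.1 to 53.5), an interval below those of all 4 BEn libraries, and library 1 held 16 and 9. These libraries were made in a separate experiment and were not fitted with the others.

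In the background libraries most lysozyme lay in a few wells. Library 1 (95 wells, 438102 transcripts) had Lyz1 at 0.373, Lyz2 at 0.207 and Ccr2 at 0.0914 per 10000, and 1 well held 80.3% of its lysozyme. In that well the tissue macrophage list made up 4.16% of transcripts, against 0.0684% in the others. Library 2 (65 wells, 69976 transcripts) was higher, with Lyz1 at 7.53, Lyz2 at 9.58, Tgfbi at 5.66, Emb at 3.87, Ly6c2 at 2.60 and Ccr2 at 1.149. Here 7 wells with at least 5 lysozyme transcripts, a threshold set after the values were seen, held 86.6% of its lysozyme. The epithelial list took 0.307% of the RNA of those 7 wells and 1.155% of the others, the pan-myeloid list 2.55% and 0.376%, and the tissue macrophage list 1.13% and 0.951%. Of the Ly6c2 transcripts 17 of 18 lay in the 7 wells, and of Ccr2 5 of 8. Tgfbi and Emb lay mostly elsewhere: 36 of 40 Tgfbi transcripts and 22 of 27 of Emb were in the other wells.

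Lists of related genes were read in the same fit, in which 23.9% of all genes were called higher in BEn than in Ecad-negative tumour. The low-count filter keeps a gene that is high enough in 1 population alone. Genes rare in the tumour, such as Pygl (2 transcripts in TEp and 0 in Ecad-negative tumour) and Alox5ap (3 and 4), could thus be tested only through BEn. For such genes a rise was all but given, so the counts of rises and their adjusted p-values are descriptions. Of 20 further classical monocyte genes 16 were measured and 4 passed the low-count filter, and 3 of these rose in BEn against Ecad-negative tumour, none fell. They were Ccl6, a chemokine (16.5 ± 3.13 per 10000 in BEn, 0.431 ± 0.339 in Ecad-negative tumour, log2 difference 5.35 ± 0.43 SE, edgeR adjusted p = 7.65e-11), S100a4, a calcium-binding protein (13.4 ± 8.20 and 0.657 ± 0.856, adjusted p = 2.00e-08), and Pygl, liver-type glycogen phosphorylase (5.56 ± 1.29 in BEn and 0 in Ecad-negative tumour, adjusted p = 6.09e-06). Mgst1, a microsomal glutathione transferase, did not pass (log2 difference 0.66 ± 0.30, edgeR adjusted p = 0.0794), though it did without library 3, in wells of at least 1000 transcripts and without the large Ecad-negative tumour well. The median log2 difference of the 4 was 4.88, and that of all genes tested -0.05.

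All 9 of the pan-myeloid genes that could be tested, of 18 listed, rose, a direction that the filter favours for those rare in the tumour. The lowest adjusted p was that of Tyrobp, an adaptor of activating receptors, with a log2 difference of 5.16 ± 0.31 (edgeR adjusted p = 1.76e-13). Alox5ap, the 5-lipoxygenase activator, had a log2 difference of 6.27 ± 0.50, Fcer1g, the Fc receptor gamma chain, 4.94 ± 0.51, and Mpeg1, perforin-2, 4.83 ± 0.60. Of 8 testable neutrophil genes 7 rose and 1 fell: Ltf, lactoferrin, which mammary epithelium also makes (-1.76 ± 0.53 on the log2 scale, edgeR adjusted p = 0.00775). The Ltf call was lost without the large Ecad-negative tumour well (-0.91, adjusted p = 0.128), without library 2 (-1.12, adjusted p = 0.206) and with DESeq2 (adjusted p = 0.0588). Retnlg was 72.9 ± 23.8 per 10000 in BEn and 1.18 ± 0.348 in Ecad-negative tumour (log2 difference 6.51 ± 0.28, edgeR adjusted p = 1.48e-16), and S100a8, Il1b, which encodes interleukin 1 beta, and S100a9 followed. BEn held transcripts of both lists, and single wells differed in which of them they held. Of 2 testable tissue macrophage genes Cd81, a tetraspanin, fell (-2.02 ± 0.40 on the log2 scale, edgeR adjusted p = 0.000153). Apoe, apolipoprotein E, did not pass (-0.62 ± 0.35, edgeR adjusted p = 0.167). The other 6 measured genes of that list were too low to test. Cd68, a lysosomal protein of phagocytes, was at 1.82 ± 1.23 per 10000 in BEn and 0.169 ± 0.280 in Ecad-negative tumour, and Emr1, which encodes F4/80, was read 4 times in BEn and not in Ecad-negative tumour. The complement genes C1qa and C1qb were read once each in BEn and 9 times each in Ecad-negative tumour, and C1qc 0 and 5 times. Mrc1, the mannose receptor, was at 0 in both.

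Among 14 other myeloid transcription factors 2 could be tested. Cebpb, a C/EBP family factor, rose (11.97 ± 2.91 per 10000 in BEn against 5.60 ± 1.77 in Ecad-negative tumour, log2 difference 1.28 ± 0.27, edgeR adjusted p = 0.000333), and Cebpd had 0.61 ± 0.41 (adjusted p = 0.251). None of the 8 genes of the CCR2 ligand and chemokine receptor list passed the filter. CCR1, a receptor for other inflammatory chemokines, was read as Ccr1 at 4.37 ± 1.59 per 10000 in BEn and 0.291 ± 0.583 in Ecad-negative tumour. Cxcr4 was at 2.26 ± 1.36 and 2.72 ± 2.98, within the spread of the libraries. The CCR2 ligand gene Ccl2 gave 1 transcript in BEn, 1 in Ecad-negative tumour and 2 in TEp. Ccl8, of the same list, gave 1, 6 and 3. Ccr7, a lymph node homing receptor, was read 34 times in BEp and 4 times in BEn. Of the Ly6 family only Ly6d, a B-lineage marker, reached 10 transcripts, 46 of them in BEp and 0 in BEn. Slc16a1, a monocarboxylate transporter of the kind that embigin serves, was at 0.423 ± 0.845 per 10000 in BEn, 0.250 ± 0.229 in Ecad-negative tumour and 0.419 ± 0.343 in TEp.

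Tgfbi is named for its induction by TGF-beta. Of 14 genes of that pathway 11 were measured and 1 passed the filter: Pmepa1, a feedback inhibitor, fell from 10.8 ± 2.69 per 10000 in Ecad-negative tumour to 1.57 ± 0.515 in BEn (log2 difference -2.62 ± 0.40, edgeR adjusted p = 4.19e-06). The others were too low to test. The receptor gene Tgfbr1 was level, at 1.08 ± 1.32 per 10000 in BEn and 1.01 ± 0.970 in Ecad-negative tumour, and Tgfbr3 was at 0.524 ± 0.407 and 0.875 ± 0.720. Smad7, an inhibitory SMAD, was at 0.326 ± 0.426 and 0.489 ± 0.472, within the spread of the libraries. The ligand gene Tgfb3 was at 0.0987 ± 0.197 in BEn and 1.18 ± 0.920 in Ecad-negative tumour. Tgfb2 was read 0 times in BEn and 8 times in Ecad-negative tumour, and Smad3 and Smad4, which carry the signal to the nucleus, once each in BEn and 8 and 12 times in Ecad-negative tumour, where the total was 182534 transcripts against 72985.

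Over the 12 library and population sums the genes whose levels were most like the mean of the 9 were Srgn, the proteoglycan serglycin (Pearson r = 0.99), Alox5ap (0.99), Tmsb4x, thymosin beta 4 (0.99), Tyrobp (0.98), S100a8 (0.98) and Ccl6 (0.98). These 12 points come from 3 populations that differ in level, and no p is given. Within BEn the order was another one. Over the 60 wells, of 183 genes with at least 60 transcripts, Cybb, the phagocyte oxidase subunit (Spearman rho 0.55), S100a4 (0.55), Ifitm3, an interferon-induced antiviral protein (0.49), Chi3l3, a chitinase-like protein (0.49), Mgst1 (0.47) and Arpc2, an actin-nucleating subunit (0.46), had the highest rank correlation with the summed 7 genes other than the lysozymes. Wfdc18, a secreted mammary protein (-0.36), S100a8 (-0.33), Ptchd1 (-0.32), Ptma (-0.32), Lrg1 (-0.32) and Hsp90ab1 (-0.32) were lowest. S100a8 was thus among the most like genes over the sums and among the least like over the wells.

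Of the genes with the highest rank correlation, Cybb, S100a4 and Chi3l3 were nearly limited to the Ccr2 wells. Cybb stood at 20.8 per 10000 there and at 0.464 and 0.434 in Retnlg-rich and remaining wells. S100a4 stood at 33.2, 1.39 and 1.74, and Chi3l3 at 23.9, 0 and 0.434. Ifitm3 (38.2, 12.1 and 10.9), Mgst1 (17.6, 6.996 and 1.74) and Arpc2 (23.4, 14.9 and 5.21) were less limited to the Ccr2 wells. The sum used for the ranking includes Ccr2, Ly6c2 and Plac8, so the choice favours genes high in Ccr2 wells. The neutrophil list took 0.754% of the RNA of Ccr2 wells, 21.01% of that of Retnlg-rich wells and 7.96% of that of the remaining wells, and the other classical monocyte list 1.46%, 0.685% and 0.360%. The nonclassical monocyte list was low throughout, at 0.107%, 0.0139% and 0.0260%. The epithelial list stood at 0.209%, 0.599% and 0.609%, the B cell list at 0 in Ccr2 wells and the T and NK list at 0.00709%. Because the wells were divided by Ccr2 and Retnlg after their values were known, these are descriptions.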

How the data were processed

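Single-cell CEL-seq of sorted mouse tumour and blood cells was used. The authors deposited estimated counts (expected counts) of transcripts per gene and well: the values equal a correction of observed barcodes for a space of 256 molecular barcodes, as found from the deposited numbers. Mapping used BWA 0.6.2-r126 and build mm10 per the submitters' processing notes; how shared reads were counted is not known here. Wells under 500 transcripts, without spike-ins, were dropped (220 of 312 kept). Wells were summed per library and population, sums were rounded, and 490 genes that passed edgeR's filterByExpr were fitted with edgeR 4.0.16 (TMM, quasi-likelihood, library as block, Benjamini-Hochberg threshold 0.05). The fit was tested on simulated data. Totals per sum ran from 11172 to 109892 transcripts. Intervals (95%, exact) and floors (3 transcripts) cover counting error only.

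The libraries pair the populations, since each holds all 3: residuals of sums of the same library correlated at 0.0608 to 0.351 (12 pairs), those of different libraries at -0.297 to 0.143 (36 pairs). Nothing in the labels says that libraries are separate animals, so p-values measure the spread between libraries, which may be technical. Cells are not replicates: wells were compared as sums per library. The 9 genes and all lists were chosen with earlier results of these data known. Named genes are the 9, up to 4 called genes per myeloid list, the 6 genes most like the 9 by 2 measures and the 6 least like over wells. Genes with at least 10 transcripts were also named from the lists on CCR2 ligands and chemokine receptors, Ly6 family, partners of embigin and TGF-beta pathway. Ccl2, Ltf, Cebpd, Cdh1, Csn3, Trf and the tissue macrophage genes other than Cd81 lie outside that rule and were named after their values were seen. Coordinates come from GENCODE and sequences from RefSeq, both GRCm38. Doublets were not called. Alternatives were other scaling, tools, filters, depth minimums and left-out libraries.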

Additional observations from a re-analysis of the deposited data

Results flagged for a closer look

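Levels are in transcripts per 10000. Of 33 groups 7 had a library far from the others by the gap rule of Dixon's test. The usual chance rate of that rule does not apply here, since many groups hold few transcripts and ties at 0. Groups at 0 in every library, such as Ccr2 in TEp, could not be flagged. Nor could the share of Lyz1 in TEp, since its library 2, with 8 Lyz1 and 0 Lyz2 transcripts, was left out of this check. Ly6c2 in BEn was 23.4 in library 1 and at most 8.09 elsewhere. Plac8 in BEn was 29.2 in the same library, next to 17.3. Lyz2 in BEn was 108 in library 4, next to 64.01. Retnlg in TEp was 2.56 in library 4, next to 1.35. The remaining cases rest on 1 or 2 transcripts. Sfpi1 was 0.139 in TEp of library 2 and 0 in the others, and 0.0912 in Ecad-negative tumour of library 2, below 0.538. Bin2 was 0.538 in Ecad-negative tumour of library 1 and 0 in the others.

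The third library of the earlier E-cadherin-positive tumour cells entered no comparison, since 1 of its 96 wells reached 500 transcripts. Over all 96 wells (14046 transcripts) every one of the 9 genes was above its highest TEp library. How many of all genes did the same was not counted. The TEp libraries were summed over wells of at least 500 transcripts only, so the sets of wells are unlike. The surface genes Ly6c2 and Ccr2 stood at 7.85 and 7.14, against 0.365 and 0. Lyz1 and Lyz2 stood at 28.6 and 22.2, against 2.19 and 0.731. Tgfbi was at 7.14 and Bin2 at 3.58, both against 0. Sfpi1 was at 1.43, from 2 transcripts, against 0.139. Plac8 was at 10.02 and Emb at 14.3, against 1.83 and 0.841. Retnlg was at 10.003, against 2.56. S100a8 and S100a9 were at 100.6 and 204, against 11.02 and 22.5 in the highest TEp library. What kind of cells these wells held was not tested.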

How the results depend on the processing

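The number of genes called moved most with the filter and with depth. Without the filter on low counts 461 genes were called for BEn against Ecad-negative tumour, 581 for BEn against TEp and 99 for Ecad-negative tumour against TEp. With wells of at least 1000 transcripts the numbers were 111, 125 and 17, and only 5 of the 9 genes could be tested. For Ecad-negative tumour against TEp, 55 were called without the large Ecad-negative tumour well, and 19 to 42 when 1 library was left out (19 without library 1, 42 without library 2). Without the replicate block, that is without pairing by library, 187, 213 and 20 were called. The Retnlg difference between BEn wells with and without Ly6c2 or Ccr2 turned to -16.6 at 2 transcripts or more and to -15.2 in wells of at least 1000 transcripts. It was 62.8 with each well thinned to 500 transcripts and 35.3 with the mean of per-well values, in place of 5.51. With 1 library left out it ran from -16.1 (without library 3) to 19.2 (without library 1), and was -117 for Ccr2 alone and -122 for Plac8 alone, both added after the data were seen. The cause was not tested. The Lyz2 difference kept its direction in every alternative run (93.3 to 176), and so did the mean Lyz1 to Lyz2 ratio (1.85 to 2.29). Of the recomputed levels 158 stayed within 1 SD between libraries of the main value and 4 moved by more. Log2 differences of the 9 genes were left out where both populations held no transcript. Of the others 271 stayed within 2 SE of the main fit and 3 moved by more. These 3, for BEn against Ecad-negative tumour, were Lyz2 at 5.23 without library 2 and 6.66 without library 3, and Bin2 at 7.75 without library 1. For the called list genes named by the rule, which leaves out Ltf and Mgst1, each of the 150 recomputed differences kept its direction and call. BEn wells, with a median of 819 transcripts, limit what can be seen of genes read once or not at all per well.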
